A study of Mus musculus with 12 samples.

Results

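The apolipoproteins described here are 10 genes (Apoa1, Apoa2, Apoa4, Apoa5, Apob, Apoc1, Apoc3, Apoe, Apoh and Apom). They were taken by gene name, with earlier results of these data known. Every probe set whose platform symbol is 1 of these names was taken, which gave 15 of the 22626 probe sets on the arrays and 10 of the 12393 genes they name. Apoa1 had 4 probe sets, Apoa4 and Apom had 2 each, and the other 7 genes had 1 each. Liver cells of male C57BL/6N mice aged 12 weeks were profiled on Affymetrix 3′ arrays in 4 groups of 3 arrays. These were mesenchymal cells of mice given phenobarbital, mesenchymal cells of mice given water, hepatocytes of phenobarbital mice and hepatocytes of water mice. Phenobarbital, a barbiturate that induces drug-metabolising enzymes through the nuclear receptor CAR, was given in the drinking water at 50 mg/kg per day for 14 days, and controls drank tap water. The labels do not say how many animals stand behind an array or how the cells were isolated, and a p-value here reflects spread between samples that may be partly technical.

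Apolipoproteins are the protein coats and ligands of the particles that carry lipid through plasma. The liver secretes most of them: Apob is the structural protein of very low density lipoprotein, Apoa1 and Apoa2 build high density lipoprotein, and the smaller members move between particles and set how fast lipases and receptors act on them. Hepatocytes are their main source, while macrophages are known to make Apoe and Apoc1 as well.

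All levels are RMA values on the log2 scale, where a difference of 1 is a 2-fold change. The median of an array was 7.403 to 7.44 in mesenchymal arrays and 7.19 to 7.21 in hepatocyte arrays, so small differences between the populations depend on the scaling. The 14 measured hepatocyte markers had an array mean of 9.07 to 11.01 in mesenchymal arrays and 13.79 to 13.93 in hepatocyte arrays. Kupffer cell markers (12 genes) averaged 13.60 to 14.03 in mesenchymal arrays and 5.91 to 6.53 in hepatocyte arrays, and sinusoidal endothelial markers (12 genes) averaged 12.29 to 12.83 in mesenchymal arrays and 6.25 to 6.73 in hepatocyte arrays. Of the stellate cell genes, Dcn was at 11.31 to 12.38 in mesenchymal arrays and 6.46 to 7.32 in hepatocyte arrays, while the collagen gene Col1a1 was at 4.87 to 5.0 in mesenchymal arrays and 4.79 to 5.46 in hepatocyte arrays. The 10 measured stellate cell and fibroblast genes averaged 7.48 to 8.17 in mesenchymal arrays and 5.84 to 6.01 in hepatocyte arrays. The fraction labelled mesenchymal therefore carried Kupffer and sinusoidal endothelial transcripts, and stellate or fibroblast ones at a lower list mean. The means of T and NK cell markers and of neutrophil markers were also higher in every mesenchymal array than in any hepatocyte array. Cyp2b10, the classical CAR target, was at 12.87 to 14.15 in phenobarbital hepatocytes and 7.72 to 8.01 in water hepatocytes. The water arrays numbered 1 stood apart in both populations: the clock output gene Dbp was at 6.52 in mesenchymal cells and 6.21 in hepatocytes there, and between 11.60 and 12.15 in the other 10 arrays.

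In hepatocytes most apolipoproteins had nearly the same level with phenobarbital as with water, and Apoa4 had the widest difference. Limma called 0 of the 10 members at an adjusted p under 0.05, in a comparison that called 4 of 8117 genes (0.0493%). Of the members, 5 had a positive and 5 a negative difference between phenobarbital and water hepatocytes, with a median of 0.00 (all genes tested: −0.00). At an unadjusted p under 0.05 there was 1 member, Apoa4, and 680 genes in all (8.38%). It was also the only member whose groups did not overlap, which 15.1% of all genes showed and 6.92% showed with the higher level in phenobarbital hepatocytes.

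Apoa4, a component of triglyceride-rich particles and high density lipoprotein that promotes triglyceride secretion, had levels of 12.59, 12.33 and 12.22 in phenobarbital hepatocytes, against 11.55, 11.63 and 11.78 in water hepatocytes. Each phenobarbital array lay above every water array. The means were 12.38 ± 0.19 in phenobarbital hepatocytes and 11.65 ± 0.11 in water hepatocytes (SD, n = 3 each), a difference of 0.73 (SE 0.11, 95% confidence interval 0.47 to 0.98) or 1.66-fold. By limma the unadjusted p was 0.000198, which ranked 11 of 8117 genes, and the adjusted p was 0.146, so the gene did not pass. The second Apoa4 probe set read 12.06, 11.84 and 11.67 in phenobarbital hepatocytes, against 10.96, 11.02 and 11.35 in water hepatocytes. Its groups did not overlap either, with a difference of 0.75 (SE 0.13, limma adjusted p = 0.222 over probe sets). Both probe sets measure the same RNA samples and are not separate evidence. The first is of the x type, in which some probes may match other transcripts. Without the water array numbered 1 the difference of Apoa4 was 0.68 (limma adjusted p = 0.213).

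Apoa4 lies in a gene cluster on chromosome 9. In the RefSeq gene table for GRCm38.p6 the protein-coding genes there follow each other as Apoa1, Apoc3, Apoa4 and Apoa5. In hepatocytes its neighbours differed between phenobarbital and water by 0.02 (Apoa1), −0.00 (Apoc3) and 0.15 (Apoa5), and none of them had groups without overlap. The 250 bases before a start site of Apoa1, Apoa4 and Apoa5 are shown because these genes of 1 cluster gave unlike values. They are RefSeq sequences of GRCm38.p6, on the plus strand, at chr9:46228380-46228629 for Apoa1, chr9:46240594-46240843 for Apoa4 and chr9:46268358-46268607 for Apoa5 (the first of its 2 listed starts). Capitals mark TATAAA.
Apoa1: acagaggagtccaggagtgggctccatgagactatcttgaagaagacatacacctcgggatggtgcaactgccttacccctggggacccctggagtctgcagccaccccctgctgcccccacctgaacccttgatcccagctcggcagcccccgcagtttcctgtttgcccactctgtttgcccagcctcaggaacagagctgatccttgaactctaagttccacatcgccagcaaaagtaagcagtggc
Apoa4: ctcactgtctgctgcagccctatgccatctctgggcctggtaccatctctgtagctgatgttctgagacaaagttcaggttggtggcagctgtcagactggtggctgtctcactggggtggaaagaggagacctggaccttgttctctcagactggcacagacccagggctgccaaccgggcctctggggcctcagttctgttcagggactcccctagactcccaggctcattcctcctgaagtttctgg
Apoa5: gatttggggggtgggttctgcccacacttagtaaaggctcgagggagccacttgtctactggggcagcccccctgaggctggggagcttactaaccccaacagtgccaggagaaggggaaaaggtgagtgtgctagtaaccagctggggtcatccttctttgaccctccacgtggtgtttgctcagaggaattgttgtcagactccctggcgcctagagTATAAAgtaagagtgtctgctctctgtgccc
Each window was searched on both strands for TATAAA, for CCAAT, for the core recognition motif of nuclear receptors (AGGTCA), and for direct repeats of that core with 1 free base (DR1) or 4 free bases (DR4) between the copies. The Apoa5 window held TATAAA, and the windows of Apoa1 and Apoa4 held none of these letters. Over the 12 windows listed for 8 members, TATAAA was in 5, AGGTCA in 2 and CCAAT in 2, and the 2 windows of Apoa5 overlap and share their TATAAA. Of all 32851 windows of this length, 12.4% held TATAAA, 14.0% AGGTCA and 33.8% CCAAT. DR1 and DR4 were in 0 of the 12 windows, and in 0.0335% and 0.0152% of all. Apoc1 and Apoc3 have no entry there.

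**Figure D1:**
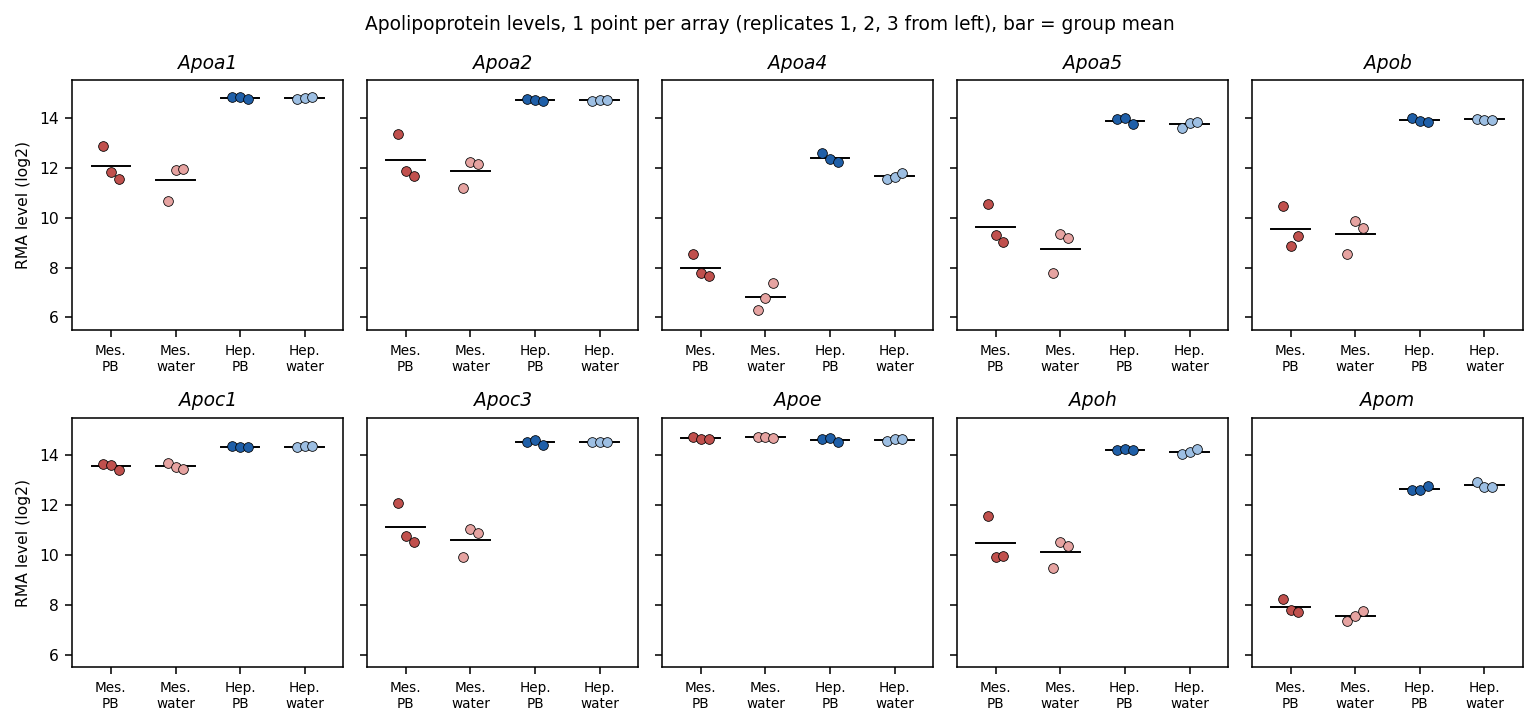
RMA level (log2) of each apolipoprotein in each array, 1 panel per gene. Points are single arrays, replicates 1 to 3 from left, and bars are group means. From left the groups are mesenchymal cells of phenobarbital mice, mesenchymal cells of water mice, hepatocytes of phenobarbital mice and hepatocytes of water mice. Apoe and Apoc1 lie near their hepatocyte level in the mesenchymal arrays, and Apoa4 separates the hepatocyte groups.

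The structural apolipoproteins of high and very low density lipoprotein stayed within narrow ranges in hepatocytes. Apoa1, the main protein of high density lipoprotein, was at 14.82, 14.84 and 14.76 in phenobarbital hepatocytes, against 14.76, 14.78 and 14.81 in water hepatocytes. The ranges overlapped, with a difference of 0.02 (95% confidence interval −0.09 to 0.13, limma adjusted p = 0.925), and its 4 probe sets gave differences of 0.01 to 0.04. Apoa2, the second protein of these particles, was at 14.74, 14.71 and 14.67 in phenobarbital hepatocytes, against 14.67, 14.73 and 14.69 in water hepatocytes. These overlapped too, with a difference of 0.01 (interval −0.10 to 0.12). Apob was at 13.97, 13.88 and 13.83 in phenobarbital hepatocytes, against 13.96, 13.92 and 13.92 in water hepatocytes, a difference of −0.04 (interval −0.17 to 0.09). None of these genes passed, and no interval reached beyond 0.17 in size.

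The members that act on lipolysis and on uptake by receptors gave values of the same kind. Apoc3, which inhibits lipoprotein lipase and remnant uptake, was at 14.53, 14.61 and 14.42 in phenobarbital hepatocytes, against 14.54, 14.52 and 14.51 in water hepatocytes. Apoa5, which promotes lipolysis by lipoprotein lipase, was at 13.95, 13.99 and 13.73 in phenobarbital hepatocytes, against 13.61, 13.77 and 13.85 in water hepatocytes. In both genes the ranges overlapped, and the difference of Apoa5, 0.15 (interval −0.06 to 0.36, limma adjusted p = 0.690), was the next widest positive one after Apoa4. Apoe, the ligand of the low density lipoprotein receptor family, was at 14.65, 14.67 and 14.51 in phenobarbital hepatocytes, against 14.58, 14.65 and 14.64 in water hepatocytes. Apoc1, known to hinder lipolysis and the uptake of remnants, was at 14.35, 14.33 and 14.33 in phenobarbital hepatocytes, against 14.31, 14.36 and 14.36 in water hepatocytes. Both overlapped, with differences of −0.01 (interval −0.15 to 0.12) for Apoe and −0.01 (interval −0.12 to 0.10) for Apoc1.

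Apom, which binds sphingosine 1-phosphate on high density lipoprotein, was at 12.60, 12.59 and 12.77 in phenobarbital hepatocytes, against 12.92, 12.71 and 12.74 in water hepatocytes. The highest phenobarbital array lay above the 2 lower water arrays, and the difference of −0.13 (interval −0.33 to 0.06, limma adjusted p = 0.690) did not pass. Its other probe set differed by −0.18. Apoh, a phospholipid-binding plasma protein also called beta-2-glycoprotein I, was at 14.19, 14.23 and 14.19 in phenobarbital hepatocytes, against 14.04, 14.13 and 14.23 in water hepatocytes, a difference of 0.07 (interval −0.07 to 0.21).

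Most members sat near the upper end of the scale in hepatocytes. The brightest probe set of a hepatocyte array reached 15.07 to 15.16, and only 62 to 69 of the 22626 probe sets of such an array lay above 14. Apoa1, Apoa2, Apoc1, Apoc3, Apoe and Apoh were above 14 in every hepatocyte array. Whether saturation narrowed differences of the bright probe sets was not tested.

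**Figure D2:**
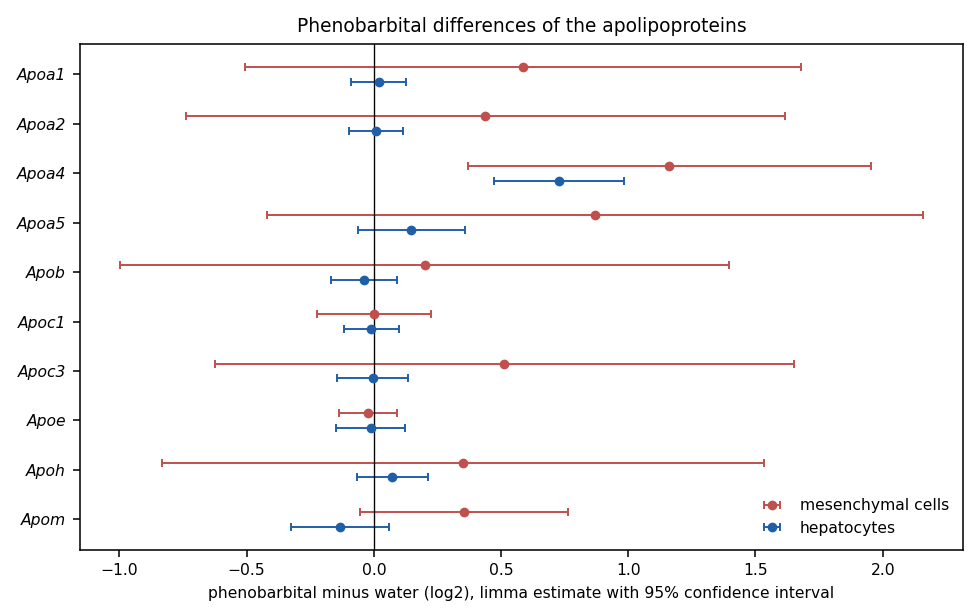
Difference between phenobarbital and water for each apolipoprotein on the log2 scale, with the limma 95% confidence interval, in mesenchymal cells and in hepatocytes (n = 3 arrays per group). In both populations the Apoa4 interval lies above 0, and those of the other 9 members include 0.

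The genes that assemble, remodel and take up lipoproteins gave no call in hepatocytes either. Of 16 tested genes of lipoprotein assembly and secretion, 0 passed, with a median difference of 0.02 between phenobarbital and water. The widest were Apobec1 (−0.52), the enzyme that edits Apob mRNA, Sar1b (0.34), the GTPase of the vesicles that carry lipoproteins out of the endoplasmic reticulum, and Mia2 (0.30), which helps load them. Of 15 remodelling genes 0 passed (median 0.05), the widest being the endothelial lipase Lipg (0.68), the phospholipid transfer protein Pltp (0.59) and the lipase inhibitor Angptl4 (0.47). Of 8 tested lipoprotein receptors 0 passed (median −0.11), the widest being Cd36 (0.62), Lrp1 (−0.37) and Lsr (−0.21). Among 22 transcriptional regulators 0 passed (median 0.04), with the widest values in Nr1d2 (0.65), Ppara (0.53) and the bile acid receptor Nr1h4 (0.46). Of 9 other apolipoproteins and lipoprotein-carried proteins 0 passed (median −0.11). The serum amyloids, proteins carried on high density lipoprotein, had the widest values (Saa2 −3.02, Saa1 −2.34, Saa4 −0.39). The phenobarbital arrays were spread widely: Saa1 was at 10.88, 10.90 and 13.85 there, against 14.24, 14.41 and 13.99 in water hepatocytes. The clock list, of which 12 genes were tested, had a median of 0.37 and no gene that passed, with Dbp at 2.12, Nfil3 at −1.09 and Per3 at 1.003. The clock values rested on water array 1: without it the median was 0.02, with Dbp at 0.28, Nfil3 at −0.57 and Per3 at 0.11. Without that array Nr1d2 differed by 0.06, Lipg by −0.03, Pltp by 0.14, Angptl4 by 0.21, Ppara by 0.18 and Nr1h4 by 0.25, and Saa2 by −3.11. Values with single arrays left out were chosen after the data were seen.

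**Figure D3:**
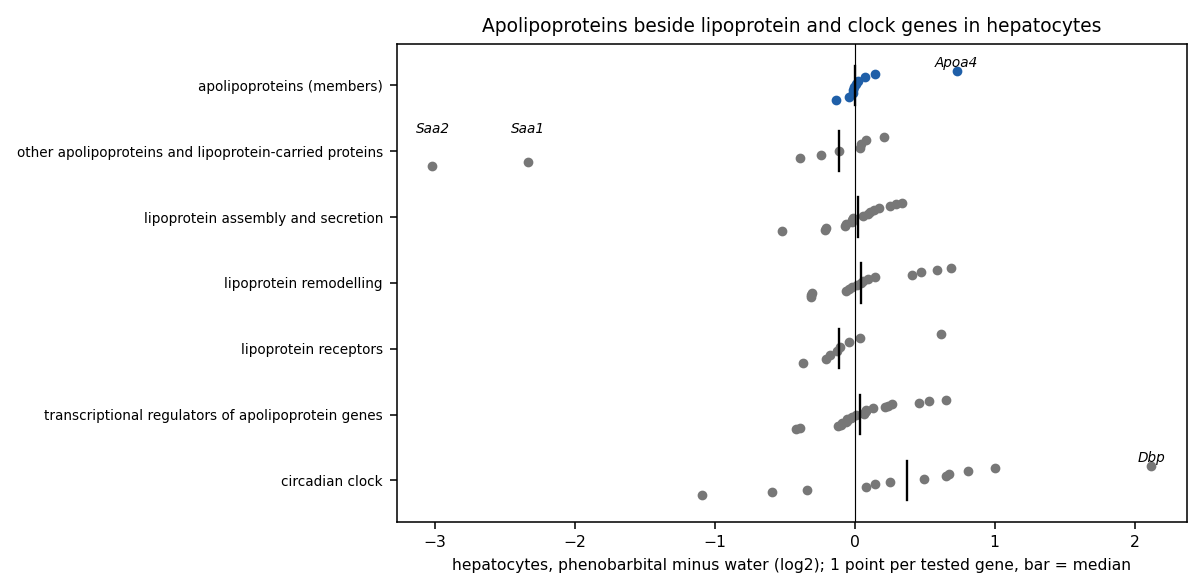
Difference between phenobarbital and water hepatocytes (log2) for the apolipoproteins and for each list of lipoprotein and clock genes. Each point is 1 tested gene and each bar the list's median. Apoa4 stands at 0.73, away from the other 9 apolipoproteins, which lie between −0.13 and 0.15.

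Over the 12 arrays, the 3 genes with the profile most like that of Apoa4, among 9030 candidates, were Gstt1, Oaf and Tlcd1. The root mean square difference of their centred profiles from that of Apoa4 was 0.24, 0.32 and 0.34 on the log2 scale. Their own differences between phenobarbital and water hepatocytes were 0.52, 0.21 and 0.31. The genes were picked over all arrays, these hepatocyte arrays included, so the choice itself favoured such differences. For Apoe, whose level differed least between the populations, the 3 closest profiles were those of Trmt112 (0.040), Hmgn1 (0.043) and Eif3c (0.048). Apoe ranged only from 14.51 to 14.74 over the 12 arrays, so this measure favours any other gene with a flat profile.

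Between the populations the members fell into distinct patterns. In water mice limma called 9 of 10 members lower in mesenchymal cells than in hepatocytes, where 82.7% of the 9031 genes tested passed and 40.7% passed as lower. The exception was Apoe. The median member difference was −3.97, against 0.02 over all genes tested. The 14 hepatocyte markers were all lower, with a median of −4.61, and the 12 Kupffer markers all higher, with a median of 7.71. In these bulk samples, fewer cells of a type and less RNA per cell cannot be told apart.

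Apom had the widest difference. It was at 7.37, 7.56 and 7.76 in mesenchymal cells of water mice, against 12.92, 12.71 and 12.74 in hepatocytes of water mice, a difference of −5.23 (SE 0.14, limma adjusted p = 6.67e-11). The mesenchymal level was 2.67% of the hepatocyte level on the linear scale. Apoa5 was at 7.79, 9.32 and 9.16 in mesenchymal cells and between 13.61 and 13.85 in hepatocytes, a difference of −4.98 (SE 0.42). Apoa4 was at 6.30, 6.80 and 7.37 in mesenchymal cells, with a difference of −4.83 (SE 0.27), and Apob at 8.53, 9.88 and 9.58, with a difference of −4.60 (SE 0.38). In each of these genes the populations were separated by several log2 units.

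For the remaining 4 of these members the populations were less far apart. Apoh was at 9.49, 10.51 and 10.36 in mesenchymal cells of water mice and differed from hepatocytes by −4.01 (SE 0.38). Apoc3 was at 9.90, 11.02 and 10.89 and differed by −3.92 (SE 0.37). Apoa1, at 10.65, 11.90 and 11.93, differed by −3.29 (SE 0.35), and its other 3 probe sets by −3.51 to −3.83. Apoa2, at 11.20, 12.23 and 12.14, differed by −2.84 (SE 0.38). In all of them the array numbered 1 was the lowest of the 3 mesenchymal arrays. The limma adjusted p of the 9 lower members was at most 2.37e-05.

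Apoc1 and Apoe broke from this pattern. Apoc1 was at 13.70, 13.53 and 13.43 in mesenchymal cells of water mice, against 14.31, 14.36 and 14.36 in hepatocytes, a difference of −0.79 (SE 0.07, limma adjusted p = 1.19e-06). Its mesenchymal level was 57.7% of the hepatocyte level. Apoe was at 14.72, 14.71 and 14.68 in mesenchymal cells, against 14.58, 14.65 and 14.64 in hepatocytes. The mesenchymal arrays lay above the hepatocyte arrays without overlap, as 84.4% of all genes did in either direction, and the difference of 0.09 (SE 0.05, interval −0.03 to 0.20, limma adjusted p = 0.160) did not pass. The direction of Apoe depended on the scaling: with arrays shifted to a common median it was −0.13 (limma adjusted p = 0.0441), and after a further quantile normalization it was 0.18 (adjusted p = 0.00961). Shifting to a common median also moved the median of all genes, which was −0.20 there and 0.02 without the shift. Apoe sat near the upper end of the scale in both populations. The brightest probe set of a mesenchymal array reached 14.90 to 14.97. Whether saturation narrowed the population differences of Apoe and the other bright members was not tested.

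Apoc1 and Apoe are adjacent genes on chromosome 7, and Apoc4 precedes Apoc1 in the RefSeq gene table. The other apolipoproteins of that locus did not stay near the hepatocyte level: Apoc4 differed by −5.28 and Apoc2 by −4.16 between mesenchymal cells and hepatocytes of water mice. The 250 bases before the start of Apoe that lies farthest 5′ among its 3 listed starts are shown for this reason. Of the other listed Apoe windows, chr7:19698622-19698871 held TATAAA on both strands and chr7:19698399-19698648 held none of the letters. In the RefSeq gene table Apoe extends to 19701310, farther 5′ than any of these windows. The window shown, RefSeq sequence of GRCm38.p6 on the minus strand, is at chr7:19699189-19699438 and held none of the letters searched.
Apoe: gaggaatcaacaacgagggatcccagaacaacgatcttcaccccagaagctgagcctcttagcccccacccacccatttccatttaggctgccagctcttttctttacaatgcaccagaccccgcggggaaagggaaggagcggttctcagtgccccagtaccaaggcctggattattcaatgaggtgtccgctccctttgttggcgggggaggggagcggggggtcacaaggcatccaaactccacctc

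Under phenobarbital the order was much the same. Limma called 9 of 10 members lower in mesenchymal cells than in hepatocytes of phenobarbital mice, where 83.1% of all genes passed and 40.9% as lower, with a member median of −3.57 (all genes 0.03). Apom differed by −4.74 (SE 0.14), Apoa4 by −4.40, Apob by −4.37, Apoa5 by −4.26, Apoh by −3.74 and Apoc3 by −3.40. Apoa1 differed by −2.73, Apoa2 by −2.41 and Apoc1 by −0.79, each with a limma adjusted p of at most 9.11e-05. Apoe overlapped between the populations here, unlike 85.7% of all genes, with a difference of 0.07 (SE 0.05, limma adjusted p = 0.227), and it was −0.16 with arrays shifted to a common median (adjusted p = 0.0187) and 0.19 after a further quantile normalization (adjusted p = 0.00721). For every called member the order of levels put both mesenchymal groups below both hepatocyte groups, and within each population the phenobarbital and water groups were not told apart by the test.

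**Figure D4:**
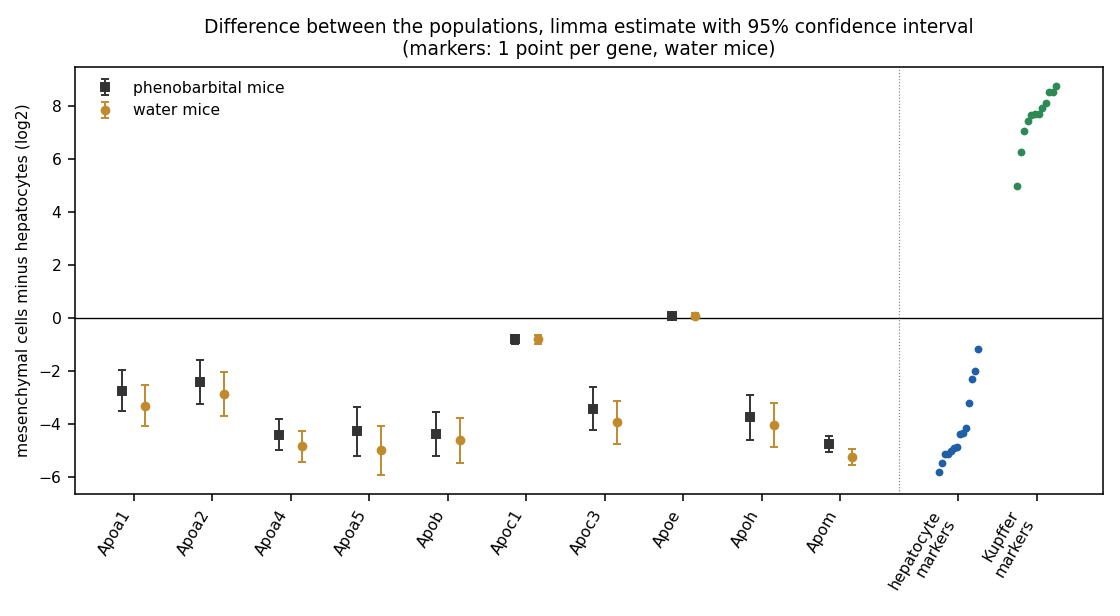
Difference between mesenchymal cells and hepatocytes (log2) for each apolipoprotein, with the limma 95% confidence interval, in phenobarbital mice and in water mice (n = 3 arrays per group). At the right, each point is 1 hepatocyte or Kupffer marker in water mice. Apoe lies near 0 and Apoc1 at −0.79, while the other 8 members lie between −2.41 and −5.23.

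The genes around the apolipoproteins were called in both directions between the populations. Of all 9031 genes tested, 82.7% passed in water mice and 40.7% passed as lower. A gene entered the test if it was above the 40th percentile of its array in at least 3 arrays, so a gene that passed only through the population where it is high had to differ, and the counts over the lists are a description. All 10 apolipoproteins were above it in both populations, Apoa4 in 2 of 3 mesenchymal water arrays and the other 9 in all 3. In water mice, of 16 genes of lipoprotein assembly and secretion 2 were higher and 12 lower in mesenchymal cells than in hepatocytes, and among the 13 above the percentile in at least 1 array of each population these counts were 2 and 9. The triglyceride synthesis enzyme Dgat2 differed by −5.03 and the lipid droplet protein Cideb by −4.90. Mttp, the transfer protein that loads lipid onto Apob, was at 11.22 in hepatocytes, and Tm6sf2, which acts in lipidation of these particles, at 9.71, and neither was above the percentile in any mesenchymal water array. Of 15 remodelling genes 4 were higher and 11 lower (4 and 8 among the 12 above it in both populations). Lpl, the lipoprotein lipase, differed by 5.81, the esterase Pon1 by −4.97 and the cholesterol exporter Abcg1 by 5.14, with Abcg1 above the percentile in 2 of 3 hepatocyte arrays. The sterol exporter Abcg5 was at 10.19 in hepatocytes and below it in every mesenchymal array.

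Lipoprotein receptors went mostly the other way, with 8 of 10 tested higher and 2 lower in mesenchymal cells of water mice (7 and 2 among the 9 above the percentile in both populations). The list held 15 receptors. Over all genes tested 82.7% passed here, 40.7% as lower and the rest of the calls as higher. The scavenger receptors Stab2, Msr1 and Cd36 differed by 6.25, 6.18 and 5.02, Msr1 being above the percentile in 2 of 3 hepatocyte arrays. Stab1 was at 12.21 in mesenchymal cells and below it in every hepatocyte array, and Stab1 and Stab2 are also on the endothelial marker list. Of 23 regulators 3 were higher and 15 lower (2 and 11 among the 18 above it in both populations). Hnf4a, also 1 of the hepatocyte markers, differed by −4.36, and the glucose-responsive factor Mlxipl, above the percentile in 1 of 3 mesenchymal arrays, by −4.44. The nuclear receptor Ppara was at 10.62 and CAR itself, Nr1i3, at 8.98 in hepatocytes, and both were below it in every mesenchymal water array. All 9 other apolipoproteins and lipoprotein-carried proteins were lower, by a median of −4.91, and all were above the percentile in both populations. Of 13 clock genes 1 was higher and 4 were lower (1 and 3 among the 12 above it in both).

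In phenobarbital mice, of the assembly genes 2 were higher and 13 lower (2 and 11 among the 14 above the percentile in both populations), and of the remodelling genes 4 were higher and 11 lower (4 and 9 among 13). Of the receptors 8 were higher and 2 lower (6 and 2 among 8), and of the regulators 3 were higher and 16 lower (2 and 13 among 19). Over all genes tested in these mice 83.1% passed and 40.9% passed as lower. Cideb differed by −4.88, Lpl by 5.92 and Stab2 by 6.39. Mttp (−4.70) and Ppara (−4.69) were above the percentile in 1 of 3 mesenchymal arrays, and Abcg1 (5.39) in 1 of 3 hepatocyte arrays.

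Phenobarbital was then compared with water within the mesenchymal cells. Limma called 0 of 10 members and 0 of 8003 genes (0%), with 232 genes at an unadjusted p under 0.05 (2.9%), among them 1 member, Apoa4. Of the members, 8 had positive and 2 negative differences, with a median of 0.40 (all genes 0.00). Apoa4 was at 8.52, 7.76 and 7.66 in mesenchymal cells of phenobarbital mice, against 6.30, 6.80 and 7.37 in mesenchymal cells of water mice. It was the only member whose groups did not overlap (7.7% of all genes), with a difference of 1.16 (SE 0.33, limma unadjusted p = 0.0109, adjusted p = 0.998). Its second probe set differed by 0.94.

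The other members overlapped between the mesenchymal groups, and their spread between arrays was wide. Apoa2 was at 13.34, 11.88 and 11.66 in phenobarbital mice and 11.20, 12.23 and 12.14 in water mice, a difference of 0.44 (interval −0.74 to 1.62). Apoa1 differed by 0.59, Apoa5 by 0.87, Apoc3 by 0.51, Apom by 0.35, Apoh by 0.35 and Apob by 0.20, with limma adjusted p = 0.998 for each. Apoc1 differed by −0.00 (interval −0.22 to 0.22) and Apoe by −0.02 (interval −0.14 to 0.09). Both intervals were narrower than those of the other 8 members.

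The mesenchymal levels of most members moved with the hepatocyte markers of the same array. The marker mean was 11.01, 9.91 and 9.60 in the phenobarbital arrays and 9.07, 10.22 and 10.02 in the water arrays. Phenobarbital array 1 was the highest of the 6 arrays for 9 of 10 members and 13 of 14 markers, and water array 1 the lowest for 8 of 10 members and 12 of 14 markers. Apoa1, for example, was at 26.0% of the mean hepatocyte level in phenobarbital array 1 and at 5.66% in water array 1. Apoc1 and Apoe spanned only 0.28 and 0.09 log2 units over the 6 arrays, while the other members spanned 0.88 to 2.78. Both sat high on the scale, and whether saturation narrowed their spans was not tested. The mesenchymal differences were then computed in other ways, with the markers or with arrays left out, all chosen after the values were seen. Why members and markers moved together was not tested.

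With the marker mean of each array as a covariate, the median member difference between phenobarbital and water mesenchymal cells was 0.04 and Apoa4 differed by 0.90 (limma adjusted p = 0.9998). The member median was −0.00 without phenobarbital array 1, 0.14 without water array 1, and 0.52 to 0.68 without each of the other 4 arrays. Without both arrays Apoa4 differed by 0.63 (adjusted p = 0.840), Apoa5 by −0.09 and Apob by −0.67. Most members were highest in phenobarbital array 1 and lowest in water array 1. Leaving out both arrays therefore lowers their difference by construction. The level of Apoa4 relative to the marker mean of its own array was −2.19 ± 0.28 in phenobarbital mice and −2.94 ± 0.42 in water mice (SD, n = 3 each), without overlap. The same held for Apoa5, at −0.55 ± 0.09 in phenobarbital mice and −1.01 ± 0.24 in water mice, and for no other member, so for 2 of 10, while 0.362% of all 8003 genes had no overlap on this scale. The marker means of the groups overlap, so a gene at a constant level overlaps on this scale by construction. The share over all genes is therefore no fair background for members that moved with the markers.

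**Figure D5:**
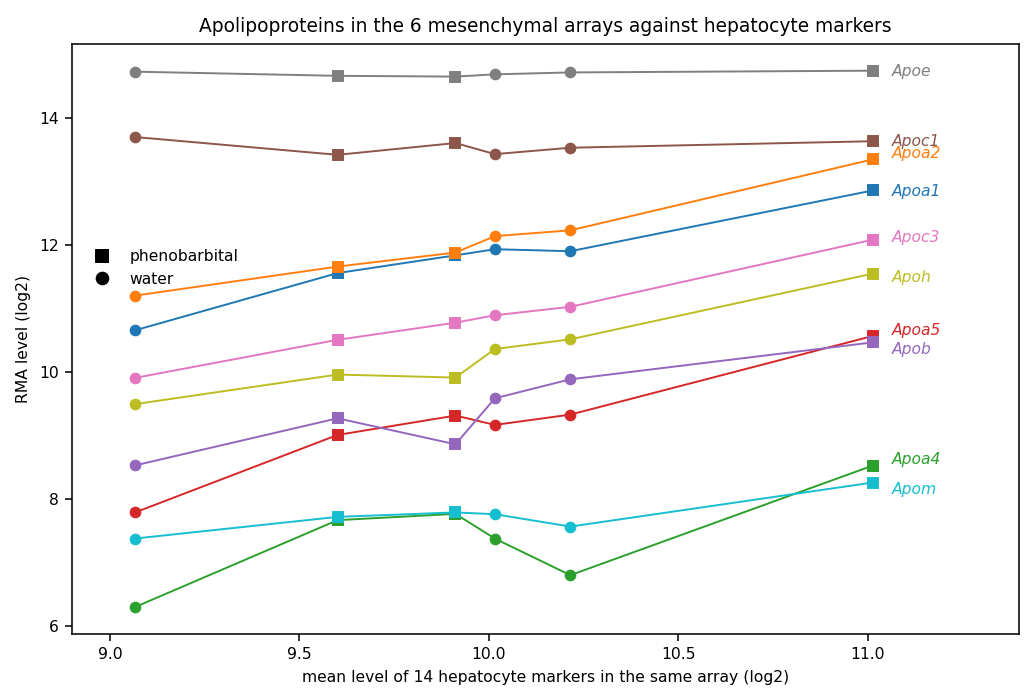
RMA level (log2) of each apolipoprotein in the 6 mesenchymal arrays against the mean level of 14 hepatocyte markers in the same array (log2). Squares are phenobarbital mice, circles are water mice, and lines join the arrays of a gene in order of marker level. Most members climb with the markers, and Apoe and Apoc1 run flat.

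The genes around the apolipoproteins gave 0 calls between the mesenchymal groups as well, in any of the lists. The widest differences were Dgat2 (0.54), Cideb (0.20) and Apobec1 (−0.19) in assembly, Angptl4 (0.64), Abcg1 (0.30) and Lpl (−0.20) in remodelling, and Sdc1 (−0.21), Lrp1 (−0.21) and Cd36 (0.06) among receptors. Nr1d2 (0.99), Mlxipl (0.68) and Nr1h4 (0.56) were the widest regulators, and Saa1 (−0.97), Saa2 (−0.67) and Apof (0.55) the widest of the other carried proteins. In the clock list these were Dbp (1.77), Arntl (−0.998) and Nr1d2. The clock values again rested on water array 1, without which Dbp differed by −0.00, Arntl by −0.24 and Nr1d2 by 0.03, and the list's median was −0.10, against 0.29 with all arrays. Without phenobarbital array 1 Dgat2 differed by 0.08, Cideb by −0.15 and Saa1 by 0.32.

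The phenobarbital difference was set between the populations directly, as the hepatocyte difference minus the mesenchymal difference. Limma called 0 of 10 members and 0 of 9031 genes (0%), with 492 genes at an unadjusted p under 0.05 (5.45%), among them 1 member, Apom. Its value was −0.49 (SE 0.20, limma unadjusted p = 0.0343, adjusted p = 0.889), from −0.13 in hepatocytes and 0.35 in mesenchymal cells, and it was −0.32 without phenobarbital mesenchymal array 1. For Apoa4, the difference of the effects was −0.43 (SE 0.38, interval −1.26 to 0.39), so an unequal effect in the populations was not detected and the interval leaves room for one. Of the members 9 were negative and 1, Apoe at 0.01, positive. These differences carry the spread of the mesenchymal arrays described above.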

How the data were processed

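RNA of each sample was amplified with an Affymetrix 3′ IVT kit and biotin-labelled, per the labels' protocols. The values the authors deposited are on the log2 scale, for 12 arrays with 22626 probe sets each, and the submitters' processing notes name RMA. No version of it, no scan date and no batch was found in the labels or the table. The platform annotation gave 20380 probe sets 1 symbol, 691 several and 1555 none, and 20351 were matched by Entrez number to the RefSeq gene table.

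Each gene was represented by its brightest probe set on average over all arrays. A gene entered a fit if at least 3 of the arrays in that fit had it over their own 40th percentile, as all 10 members did. Linear models were fitted in limma 3.58.1 (R 4.3.3) with a variance trend, and Benjamini-Hochberg adjusted p-values cover all genes tested. Phenobarbital was compared with water on the 6 arrays of each population, and all other comparisons used 12 arrays. Intervals are at 95% and reflect 3 arrays per group.

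All members were named. Of each gene list, up to 4 genes that passed or, where none did, up to 3 with the widest difference were named. The members, lists and tests were chosen with earlier results of these data known. The fits were tested on simulated data. No pair of arrays had identical values. Deviations from group means correlated weakly between mesenchymal cells and hepatocytes of water mice with the same number (0.192, 0.159 and 0.148). Each was highest with its own number, so the numbers may pair these samples. The labels do not say whether a number marks an animal. Other pairs of groups ran from −0.227 to 0.167. The value 0.167, between the mesenchymal arrays numbered 3 of phenobarbital and water mice, was also highest with its own number. The water arrays numbered 1, which stood apart in both populations, enter the correlations of water mice. The main fits treated no groups as paired. Alternatives changed the filter, scaling, probe set rule, variance trend, pairing and samples. No depth can be stated for arrays.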

Additional observations from a re-analysis of the deposited data

Results flagged for a closer look

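Apom was singled out because its phenobarbital difference ran in opposite directions in the populations. Every mesenchymal array of phenobarbital mice lay above the mean of the mesenchymal water arrays, and every hepatocyte array of phenobarbital mice lay below the mean of the hepatocyte water arrays. The hepatocyte difference minus the mesenchymal difference was −0.49 (SE 0.20). In limma the unadjusted p of this difference was 0.0343 and the adjusted p 0.889, so it did not pass. The second Apom probe set did not have this pattern in hepatocytes, where it read 12.67, 12.56 and 12.94 in phenobarbital mice, against a mean of 12.90 in water mice. Its difference of the effects was −0.74 (SE 0.30, limma adjusted p = 0.948 over probe sets). This came from −0.18 in hepatocytes and 0.56 in mesenchymal cells. Relative to the hepatocyte-marker mean of its own array, Apom was at −2.26 ± 0.45 in mesenchymal cells of phenobarbital mice and −2.20 ± 0.48 in those of water mice (SD, n = 3 each), a difference of −0.06.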

How the results depend on the processing

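No member changed its call in the phenobarbital comparisons under any alternative run, and the 9 members lower in mesenchymal cells were called in every one. The replicate block put the array number into every fit, also for groups whose numbers did not pair by the correlations above. With this block Apoa4 in hepatocytes had a difference of 0.73 (limma adjusted p = 0.296). Between the populations of either treatment 9 members were called, as in the fits without the block. It changed no member call. Leaving out 1 array at a time gave Apoa4 differences of 0.62 to 0.81 in hepatocytes (limma adjusted p 0.105 to 0.521). Between populations Apoe took the opposite sign when arrays were shifted to a common median (−0.13 in water mice and −0.16 in phenobarbital mice), and a further quantile normalization gave 0.18 and 0.19, past the threshold. Over all genes, hepatocyte calls ran from 1 (without water array 2, without phenobarbital array 1, or with all 12 arrays) to 5 (without water array 1, without phenobarbital array 3, or with no filter), against 4, and 9 probe sets passed on their own. For the difference of the effects 1 gene passed without phenobarbital hepatocyte array 3 or phenobarbital mesenchymal array 1, against 0.

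Other values that changed sign follow. None of them was called, and the cause was not tested. In hepatocytes they were 0.00033 (Apoc3) with a common median, and −0.012 (Apoa1), −0.0040 (Apoa2), 0.019 (Apoc1) and 0.013 (Apoc3) after a further quantile normalization. In mesenchymal cells, the marker covariate gave −0.014 (Apoa2), −0.24 (Apob), 0.0018 (Apoc1) and −0.096 (Apoh). Without phenobarbital array 1 and water array 1 the values were −0.22 (Apoa1), −0.41 (Apoa2), −0.087 (Apoa5), −0.67 (Apob), 0.031 (Apoc1), −0.32 (Apoc3) and −0.50 (Apoh). For most members these were the highest and the lowest mesenchymal array, so a fall of the difference was fixed by this choice. For the difference of the effects they were 0.0063 (Apoc1) with a common median, 0.025 (Apoc1) and −0.0092 (Apoe) after a further quantile normalization, and 0.18 (Apob) and −0.016 (Apoe) without the water arrays numbered 1.

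Leaving out 1 array at a time, hepatocyte differences ran from −0.0052 to 0.027 (Apoa2), −0.052 to 0.047 (Apoc3) and −0.040 to 0.039 (Apoe). Mesenchymal differences ran from −0.087 to 0.76 (Apoa2), −0.27 to 0.54 (Apob), −0.063 to 0.072 (Apoc1) and −0.19 to 0.63 (Apoh). Differences of the effects ran from −0.75 to 0.097 (Apoa2), −0.57 to 0.23 (Apob), −0.081 to 0.053 (Apoc1), −0.016 to 0.063 (Apoe) and −0.56 to 0.26 (Apoh). The filter at the 60th percentile left out Apoa4 and Apom in mesenchymal cells, so they have no value there. With 3 arrays per group the precision is set by the number of arrays.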
